A study of Arabidopsis thaliana with 18 samples.

Results

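The comparison set 3 libraries of Arabidopsis thaliana xct-1 seedlings that carry a transgene labelled XCT::SpXAP5 against 3 libraries of xct-1 seedlings without it, that is 6 of the 18 libraries of the study. The libraries were chosen by their titles alone, so no measured value entered the choice. The 6 genotypes of the study were Col-0 as wild type, the single mutants xct-1 and xct-2 of XCT, the mutant prl1-2, the line xct-1 XCT::SpXAP5 and the line xct-2 XCT::XCT, each with 3 independent biological replicates. Both lines compared carried the xct-1 allele and differed by the transgene, and whole seedlings were sampled every 2 h over 24 h at day 11 in constant light and pooled. The libraries therefore held an average over the circadian day and no time course. Another label put the age at 10 days. The promoter of the transgene, its level and the number of independent insertions were not given in the sources used here, and the count tables held no feature for SpXAP5, so whether the transgene was expressed was not measured.

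XCT (XAP5 CIRCADIAN TIMEKEEPER) is the Arabidopsis member of the XAP5 family, a group of nuclear proteins conserved from yeasts to animals and plants. Mutants of XCT run their circadian clock with a short period, and XCT has been tied to the PRP19-associated complex, a set of proteins around the activated spliceosome that includes PRL1. In splicing, an intron is removed between a 5′ site and a 3′ site. When a 3′ site other than the usual one is taken, the intron ends elsewhere and the messenger RNA gains or loses a few bases. The comparison asks whether a yeast XAP5 protein can stand in for the plant protein, and the readouts here were the use of splice junctions and the level of genes.

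RNA was read with PacBio Iso-Seq, in which a read can span a whole transcript, and the deposited values were raw counts of reads per gene, exon bin and splice junction. The 3 xct-1 libraries held 818813, 971875 and 798962 gene reads, and the 3 xct-1 XCT::SpXAP5 libraries held 842817, 913608 and 842112. Replicate 2 of xct-1 stood apart from the other 5 libraries in how many junctions a read crossed. It held 7.05 junction counts per gene read, against 10.1 and 10.8 in the other xct-1 libraries and 9.96, 11.0 and 11.1 with the transgene. The trait was not particular to xct-1. Replicate 2 was also the lowest of its genotype in Col-0, xct-2 and prl1-2, at 7.93, 7.53 and 7.85, but not in either transgenic line. Where a log2 change of a gene is printed and moved by over 1.5 times without xct-1 replicate 2, the value without it is given too, for LHY as a range with the processing alternatives. Markers of green tissue and PYK10, a root glucosidase, were abundant in all 6 libraries. PYK10 was 1 of 3 root markers listed, and the others, NRT2.1 and TIP2;3, had too few reads to be tested. The 5 seed and flower markers CRA1, SESA3, AP3, PI and AG had no read in any of the 6 libraries.

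The XCT gene had the same mark of the allele in both lines. The junction of XCT at chr2:9067108-9067195 on the + strand (TAIR10) had no read in any xct-1 or xct-1 XCT::SpXAP5 library, although XCT had 11, 68 and 10 gene reads in xct-1 and 7, 8 and 2 with the transgene. In Col-0 the same junction held 8, 16 and 2 reads, equal to all XCT gene reads there. A count of 0 in a library allows up to 3 reads at the 95% level, a limit that covers counting error only. The xct-2 libraries showed another pattern, with no reads on the first 3 exon bins of XCT, and the xct-2 XCT::XCT libraries had 654, 284 and 334 XCT reads. In CPM, read counts scaled to a common library size, XCT stood at 27.2 ± 20.6 (SD, n = 3) in xct-1 and 7.99 ± 4.22 (SD, n = 3) with SpXAP5, a log2 change of -1.78 with a standard error of 0.65 (edgeR, adjusted p = 0.577). XCT was highest in xct-1 replicate 2, and the log2 change without that library was -0.90. It ranged from -2.10 to -0.90 when each library was left out in turn.

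No splice junction, exon bin or gene passed an adjusted p of 0.05 between the line with SpXAP5 and the xct-1 mutant in edgeR's quasi-likelihood test. Among 50590 junctions the share called was 0%, and 2288 junctions (4.52%) had an unadjusted p under 0.05, 1449 with higher and 839 with lower use in the transgenic line. Among 31056 exon bins the share called was again 0%, with 1470 bins (4.73%) at an unadjusted p under 0.05. Among 10664 genes the share called was 0%, with 906 genes (8.5%) at an unadjusted p under 0.05, 110 higher and 796 lower. DESeq2 also called 0 junctions, 0 exon bins and 0 genes, with 1072, 1015 and 858 of them at an unadjusted p under 0.05. The count depended on the filter. With a minimum of 1 read edgeR called 151 of 100911 tested junctions, in 50 genes, 140 higher and 11 lower. Of these 151, 150 were also tested above. In 136 of the 151, xct-1 replicate 2 had the lowest usage of the 6 libraries. The ranges of the lines did not overlap in 39. Neither share was worked out over all tested junctions. Without a filter edgeR called 6 genes, all lower. Usage of a junction or bin here is its share of the gene's reads, and its change is the log2 change in the odds of a gene read carrying it.

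The unannotated junctions used in xct-2 were present in both lines at about the same level. In xct-2 against Col-0, 473 of 3702 tested junctions outside the annotation (12.8%) were used more, and this choice used no library of either line compared. Reads were pooled over these 473 junctions in 364 genes, and a gene's reads were counted once for each of its junctions. Counted so, junction reads made up 2.91%, 3.38% and 3.11% of the gene reads in the 3 xct-1 libraries. With SpXAP5 they made up 3.17%, 2.98% and 3.09%. The ranges of the 2 lines overlapped, with means of 3.14% ± 0.235 (SD, n = 3) in xct-1 and 3.08% ± 0.0950 (SD, n = 3) in the transgenic line. Col-0 stood at 0.363%, 0.372% and 0.368%, far below both. The difference of -0.0557 percentage points between the lines covered 2.01% of the distance from xct-1 to Col-0 (-2.71%, away from Col-0, with 1 junction per gene) and was smaller than the spread of the xct-1 replicates. When every junction was instead given equal weight, mean usage was 8.96% ± 0.384 in xct-1 and 9.47% ± 0.191 in the transgenic line (SD, n = 3 each), a difference of the opposite sign.

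Junction by junction, none of the 473 was called between the lines, and 9 had an unadjusted p under 0.05, 6 higher and 3 lower in the transgenic line. Their median log2 odds change was 0.07, beside 0.13 over all tested junctions and 0.01 over all tested unannotated junctions. The median 95% interval reached 0.96 to either side of the estimate, so a 2-fold change in the odds could not be told from no change at many junctions. For 304 of the 473 the interval lay above -1, that is, above a 2-fold fall in the odds. For 101 it lay within 1 of 0 on both sides. In 471 junctions with at least 60 gene reads in Col-0, xct-1 and the transgenic line, usage differed by a median of 0.140 percentage points, and 439 differed by at most 5 points. Usage was higher with SpXAP5 at 276 of them and lower at 195, and it was nearer to Col-0 than to xct-1 at 5. Across these junctions the usages in the 2 lines correlated with Pearson's r of 0.976 and Spearman's rho of 0.976. These junctions share libraries and often genes, and are not independent replicates.

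**Figure D1:**
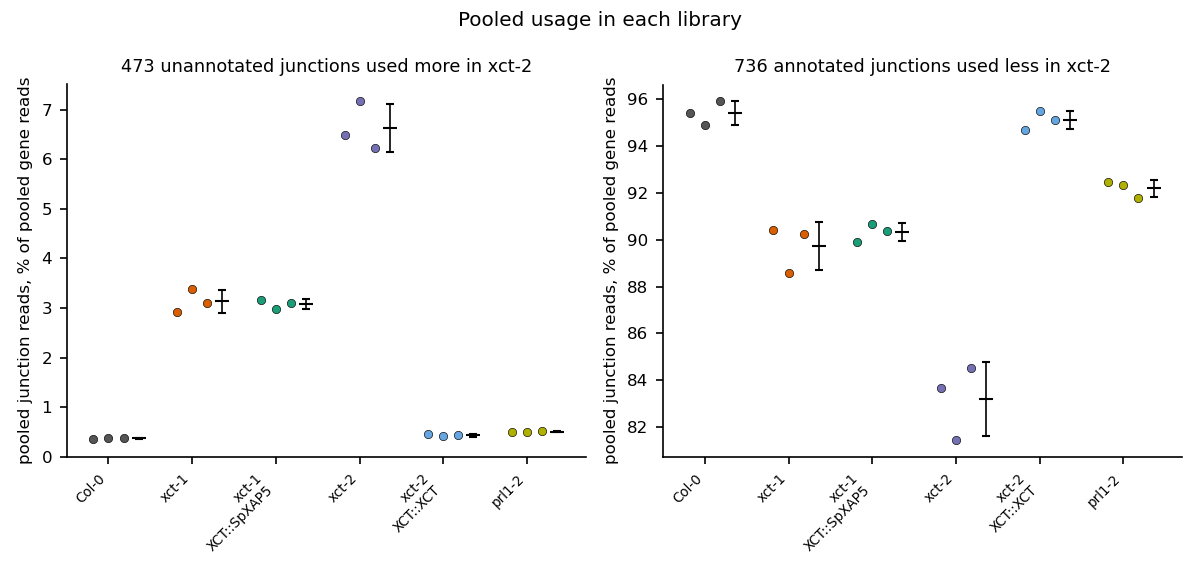
Pooled usage in each library (vertical axis, junction reads as % of gene reads) of 473 unannotated junctions used more in xct-2 (left) and 736 annotated junctions used less in xct-2 (right), by genotype. A gene's reads are counted once for each of its junctions. Points are replicates 1 to 3 from left to right and bars are mean ± SD, and the right axis does not start at 0. The xct-1 and xct-1 XCT::SpXAP5 points lie at about the same height in both panels, at about 3% on the left and 90% on the right.

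The annotated junctions showed the same picture from the other side. Of 46888 annotated junctions tested, 736 were used less in xct-2 than in Col-0. Their pooled usage was 90.4%, 88.6% and 90.2% in xct-1 and 89.9%, 90.7% and 90.4% with SpXAP5, beside 95.4%, 94.9% and 95.9% in Col-0. The xct-1 range enclosed 2 of the 3 transgenic libraries, and the lowest of the 6 values was that of xct-1 replicate 2. None of the 736 was called between the lines. At an unadjusted p under 0.05 stood 24 of them (3.26%), 12 in each direction, beside 4.68% of all tested annotated junctions. The median log2 odds change of the 736 was 0.02.

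Most of the 473 junctions shift the 3′ site of an intron downstream, so that the following exon loses bases. A new 3′ site lay 11 to 40 bases downstream of the annotated site in 343 of them, where pooled usage was 2.89% ± 0.279 in xct-1 and 2.82% ± 0.0835 with SpXAP5 (SD, n = 3 each). In 68 it lay 1 to 10 bases downstream, with 4.37% ± 0.241 in xct-1 and 4.64% ± 0.0844 with SpXAP5. In 41 it lay more than 40 bases downstream, with 3.07% ± 0.194 and 2.97% ± 0.167. The ranges of the lines overlapped in each class, so the position of the new site did not separate them. The remaining 8 junctions with an upstream 3′ site and 13 of other kinds gave 7.51% ± 1.85 against 6.71% ± 0.136 and 4.26% ± 0.346 against 3.63% ± 0.563, again in the order xct-1, xct-1 XCT::SpXAP5.

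**Figure D2:**
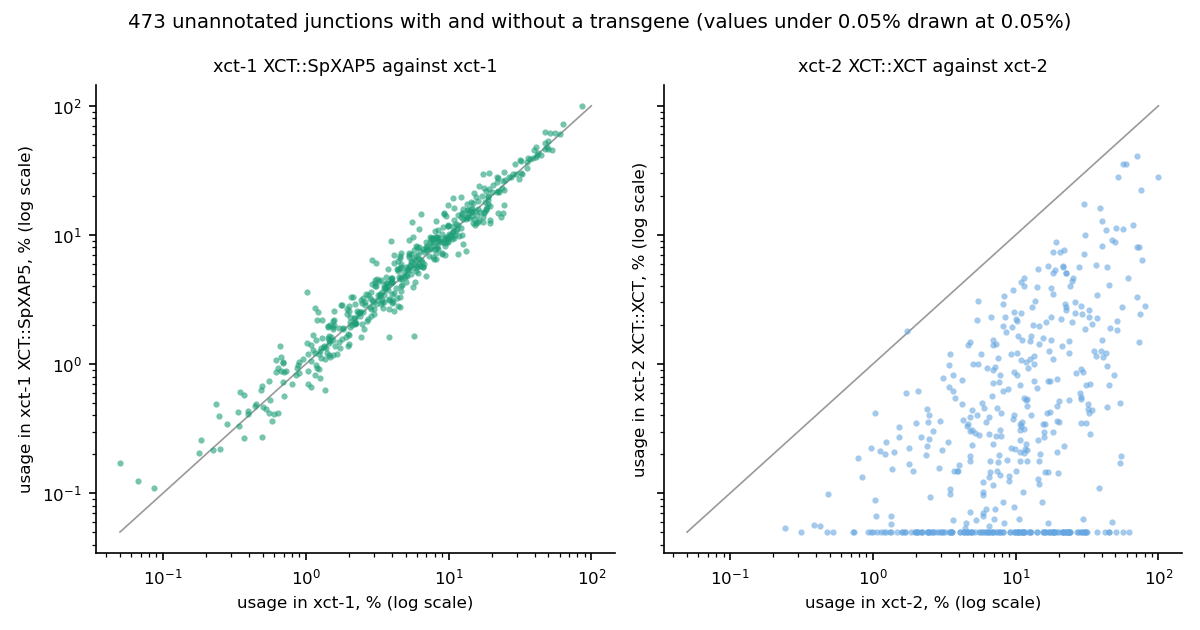
Usage of 473 unannotated junctions, pooled over 3 replicates, with a transgene (vertical axis, %, log scale) against usage in the same mutant without it (horizontal axis, %, log scale), for SpXAP5 in xct-1 (left) and XCT in xct-2 (right). Points are junctions, the line marks equal usage and values under 0.05% are drawn at 0.05%. On the left the points follow the line over the whole range, and on the right nearly all lie below it.

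Of these junctions 12 are given by name, those with the smallest p for higher use in xct-2, limited to 1 per gene and to genes with at least 60 reads in each line. All 12 shift a 3′ site downstream, by 14 to 68 bases. ATH13, a protein of the ABC1 kinase-like family, carried such a junction at chr5:25949812-25949910 on the + strand, 15 bases beyond the annotated 3′ site. It held 165 of 1196, 134 of 857 and 154 of 1076 gene reads in xct-1. With SpXAP5 it held 196 of 1312, 201 of 1377 and 196 of 1256, and in Col-0 1 of 2715 reads over the 3 libraries. Usage was thus 14.6% ± 0.949 in xct-1 and 15.0% ± 0.513 with the transgene (SD, n = 3 each), a log2 odds change of 0.05 with a 95% interval from -0.63 to 0.74 (edgeR, adjusted p = 1). The 2 lines overlapped and both stood far above Col-0.

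TIC (TIME FOR COFFEE), a nuclear regulator of the circadian clock, gained a 3′ site 18 bases downstream at chr3:7914203-7914295 on the + strand. Its usage was 10.4%, 12.1% and 11.8% in xct-1 and 12.5%, 12.5% and 11.6% with SpXAP5. The log2 odds change was 0.11 with an interval from -0.48 to 0.71. EMB2753, the auxiliary subunit of the N-terminal acetyltransferase NatA, used its junction at chr1:30230125-30230244 on the - strand in 4.75%, 5.35% and 5.44% of reads in xct-1. With SpXAP5 the values were 5.87%, 5.27% and 4.92%, and none of 4062 Col-0 reads carried it. Neither junction separated the lines.

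GLU1 and NIA2, both genes of nitrogen metabolism, were the most deeply read of the 12. GLU1, the ferredoxin-dependent glutamate synthase of leaves, used its junction in 1.18%, 1.20% and 1.38% of reads in xct-1 and 1.29%, 1.43% and 1.26% with SpXAP5. NIA2, the main nitrate reductase, used its junction in 0.247%, 0.262% and 0.330% of 31888 reads in xct-1. With SpXAP5 the values were 0.343%, 0.318% and 0.379%, and no Col-0 read of 25448 carried it. CEV1, the cellulose synthase subunit CESA3, used a site 30 bases downstream in 3.32%, 3.67% and 2.96% of reads in xct-1 and 3.75%, 3.45% and 3.10% with SpXAP5. The log2 odds changes of GLU1, NIA2 and CEV1 were 0.08, 0.31 and 0.06, with intervals that all held 0.

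The strongest usage in both lines was found at ABCB26, an ABC transporter gene. Its junction at chr1:26623857-26624028 on the + strand took 45 of 111, 86 of 187 and 55 of 94 reads in xct-1, or 48.3% ± 9.21. With SpXAP5 it took 47 of 117, 35 of 70 and 40 of 75 reads, or 47.8% ± 6.84 (SD, n = 3 each), and no Col-0 read carried it. ATX2, a trithorax-like histone methyltransferase, followed with 41.5%, 35.9% and 38.0% in xct-1 and 44.4%, 37.1% and 38.4% with the transgene. NTRC, a chloroplast thioredoxin reductase, showed the largest difference of the 12 in percentage points, with 11.9%, 14.2% and 12.4% in xct-1 and 16.8%, 16.6% and 12.5% with the transgene. Its ranges overlapped, and its log2 odds change of 0.29 had an interval from -0.47 to 1.06. The lowest usages of AT4G38350, a Niemann-Pick C1-like gene, AT3G24180 and AT4G11270 in either line were 26.3%, 22.9% and 17.0%, with mean differences of 0.475, 0.407 and -0.979 percentage points between the lines. Adjusted p was 0.986 or above for all 12 in this comparison (edgeR).

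**Figure D3:**
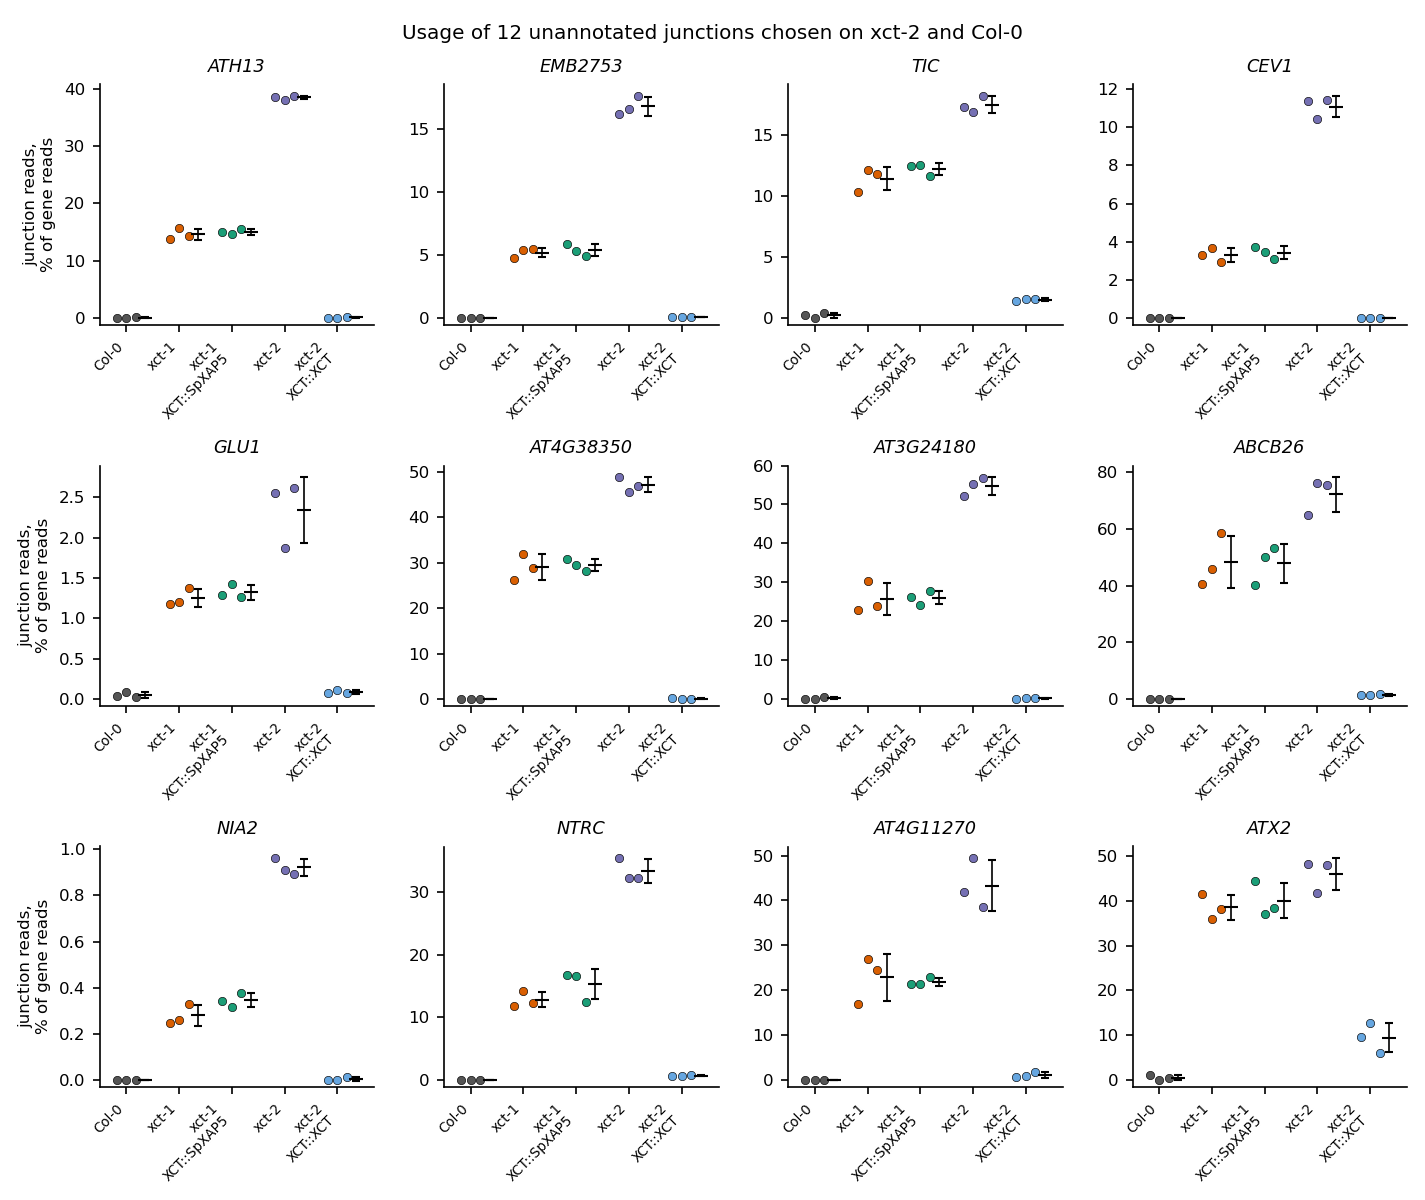
Usage of 12 unannotated junctions (vertical axis, junction reads as % of gene reads) in the libraries of 5 genotypes. Points are replicates 1 to 3 from left to right and bars are mean ± SD (n = 3). In every panel the xct-1 and xct-1 XCT::SpXAP5 points overlap or nearly meet, above Col-0 and below the xct-2 mean.

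Both lines differed from Col-0 at similar numbers of junctions. In edgeR, 546 junctions (1.08%) were called between xct-1 and Col-0 and 577 (1.14%) between xct-1 XCT::SpXAP5 and Col-0. The 2 counts share the Col-0 libraries. Of the 3702 unannotated junctions, 365 (9.86%) were called for xct-1 and 381 (10.3%) for the transgenic line. Among the 473 junctions, 359 and 373 were called in these comparisons, with median log2 odds changes of 4.87 and 5.12. Many of these junctions had no Col-0 read, so their fitted changes are no bounds.

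The plant transgene in the other allele gave a contrast. In xct-2 XCT::XCT the pooled usage of the 473 junctions was 0.462%, 0.407% and 0.430%, against 6.49%, 7.17% and 6.24% in xct-2. The difference covered 99.0% of the distance to Col-0. The change with SpXAP5 in xct-1 differed from the change with XCT in xct-2 at 712 of 50590 junctions (1.41%) at an adjusted p under 0.05, 416 in the positive and 296 in the negative direction (edgeR interaction term). Of the unannotated junctions, 404 (10.9%) were called, among them 394 of the 473, and that count is a description because the xct-2 libraries also chose the 473. Allele and transgene both changed between these pairs, so their parts cannot be told apart. At the gene level the same test called 1 gene, XCT itself, with a log2 difference of -7.96 (adjusted p = 0.000767). The transgene of xct-2 XCT::XCT is XCT, which had 654, 284 and 334 reads in that line and 4, 8 and 4 in xct-2. The call therefore describes the construct and is no independent result. DESeq2 called 4 genes, edgeR without a filter 5, without xct-1 replicate 2 it called 2, and with a replicate block and the junctions per read as a covariate 155.

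The clock list of 21 genes held 4 unannotated junctions that were used more in xct-2, and all 4 were present in both lines. UBP13, a ubiquitin protease that acts in the clock, used a 3′ site 30 bases downstream, at chr3:3768304-3768410 on the - strand. It took 92 of 229, 55 of 153 and 122 of 336 reads in xct-1 and 81 of 231, 140 of 386 and 153 of 340 with SpXAP5. Usage was 37.5% ± 2.34 against 38.8% ± 5.42 (SD, n = 3 each), and none of 668 Col-0 reads carried the junction. LHY, a morning transcription factor of the clock, used a 3′ site 53 bases downstream in 6.25%, 6.43% and 6.17% of reads in xct-1 and 6.76%, 8.28% and 7.63% with SpXAP5. The LHY ranges did not overlap and the transgenic line was the higher, but the log2 odds change was 0.28 with an interval from -0.63 to 1.19 (edgeR, adjusted p = 0.992). These percentages rested on 10 to 18 junction reads per library.

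TOC1, an evening repressor of LHY and CCA1, used a 3′ site 61 bases downstream in 19 of 123, 16 of 89 and 12 of 104 reads in xct-1 and in 19 of 146, 12 of 122 and 18 of 129 with the transgene. AT3G54500, the LNK2 coactivator, used a site 23 bases downstream in 22.2%, 41.3% and 33.0% against 35.1%, 28.0% and 25.3%. Both genes overlapped between the lines. Over the whole list, 167 junctions were tested, 0 were called and 1 had an unadjusted p under 0.05, beside 4.52% of all junctions. That junction lay in UBP12, the close relative of UBP13, where usage was 97.3% ± 0.605 in xct-1 and 98.7% ± 0.299 with SpXAP5 (edgeR, unadjusted p = 0.0247). With a minimum of 1 read, 14 other junctions of UBP12 were called, all higher with SpXAP5, with log2 odds changes of 1.93 to 2.50. Their usage was 62.8% to 75.2% in xct-1 replicate 2 and 96.3% to 99.2% in the other 5 libraries. Without that library the median log2 odds change of the 14 was 0.68 in place of 2.29.

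**Figure D4:**
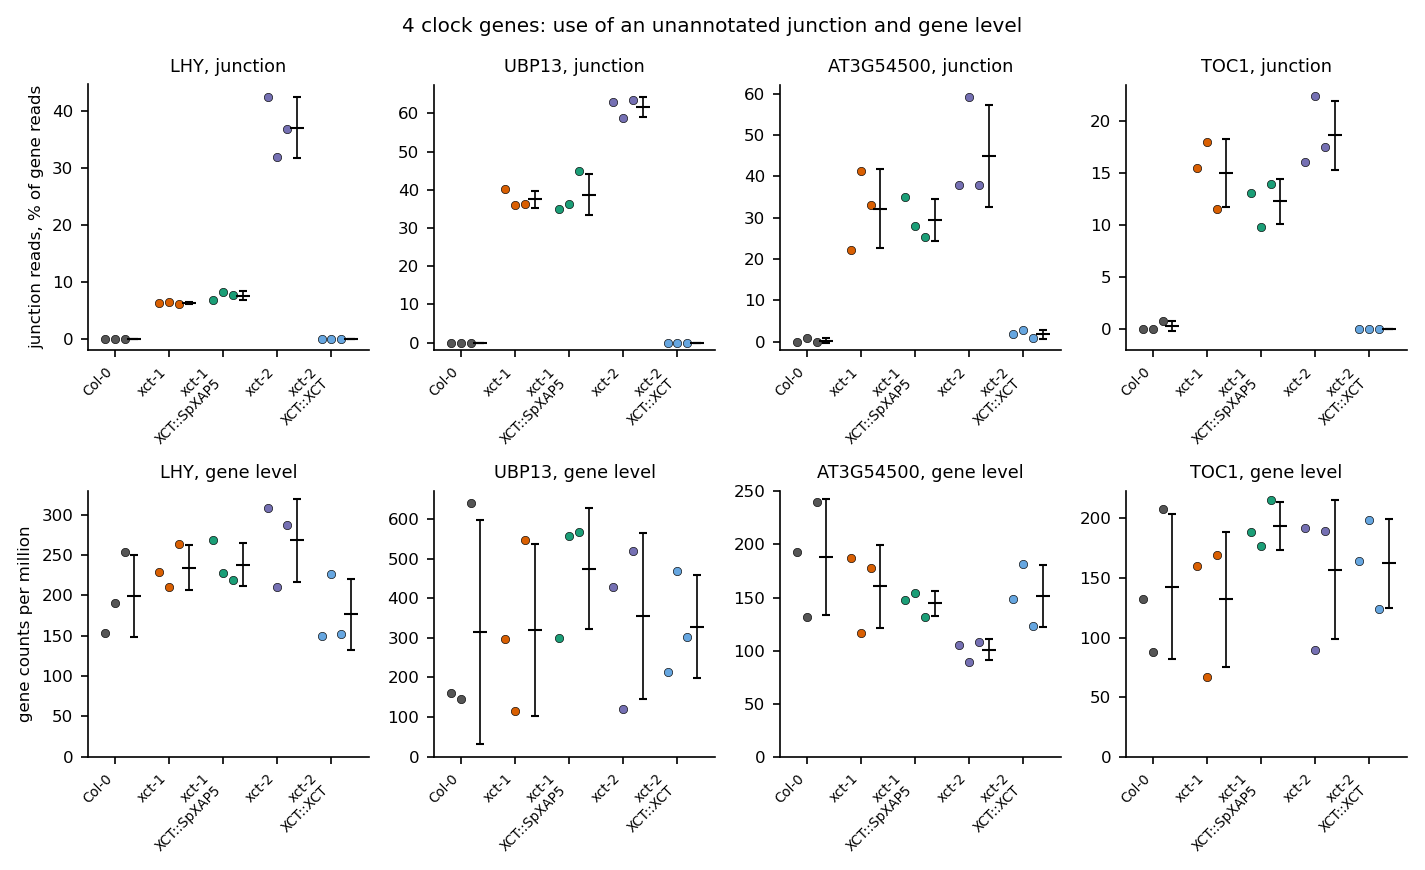
Usage of 1 unannotated junction (top row, % of gene reads) and gene level (bottom row, CPM) for LHY, UBP13, AT3G54500 and TOC1 in 5 genotypes. Points are replicates 1 to 3 from left to right and bars are mean ± SD (n = 3). In the top row the xct-1 and xct-1 XCT::SpXAP5 means lie between those of Col-0 and xct-2, and in the bottom row the 2 lines overlap except for TOC1.

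Clock gene levels did not pass the test either. CCA1, the partner of LHY, stood at 165, 160 and 173 CPM in xct-1 and 186, 153 and 184 with SpXAP5. LHY stood at 229, 210 and 264 against 268, 227 and 219, with a log2 change of 0.02 and an interval from -0.70 to 0.75. TOC1 stood at 160, 66.7 and 169 against 189, 176 and 215, and its ranges did not overlap, yet its log2 change of 0.56 had a standard error of 0.42 (edgeR, adjusted p = 0.664). The TOC1 value of 66.7 was that of xct-1 replicate 2, without which the log2 change was 0.23. GI and PRR7, genes of the day phase, were also lowest in that library. GI stood at 232, 36.7 and 223 CPM in xct-1 and 128, 165 and 185 with the transgene, and PRR7 at 340, 44.9 and 282 against 204, 247 and 227. ZTL, a blue-light receptor that targets TOC1, had a log2 change of 0.27, and PRR9, a morning repressor, one of -0.35, and these were 0.17 and -0.67 without xct-1 replicate 2. UBP12 and UBP13 had log2 changes of 0.65 and 0.57, each with a standard error of 0.66, and of 0.23 and 0.16 without xct-1 replicate 2.

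Of the 20 clock genes tested, 0 were called and 1 had an unadjusted p under 0.05, beside 8.5% of all genes. That gene was LCL1, a MYB factor of the LHY family, at 31.3, 65.2 and 14.7 CPM in xct-1 and 23.3, 18.8 and 8.35 with SpXAP5, so its ranges overlapped, and without xct-1 replicate 2 its log2 change was -0.44 in place of -1.16. The median log2 change of the list was 0.03, against -0.08 over all genes tested.

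Genes of the splicing machinery gave no call. Of 20 tested spliceosome and PRP19-associated genes 1 had an unadjusted p under 0.05, ATU2AF35A, a subunit of the factor that reads the 3′ splice site. It stood at 10.4, 25.5 and 6.52 CPM in xct-1 and 6.47, 2.89 and 1.67 with SpXAP5, a log2 change of -1.93, or -1.14 without xct-1 replicate 2. The list's median log2 change was -0.07. PRL1 stood at 9.12, 18.7 and 13.0 CPM in xct-1 and 11.6, 11.6 and 8.35 with SpXAP5, a log2 change of -0.39, or -0.051 without xct-1 replicate 2. None of the 107 junctions tested in the list was called, and 5 had an unadjusted p under 0.05, beside 4.52% of all tested junctions. At all 5 of these, xct-1 replicate 2 had the lowest usage of the 6 libraries. At a junction of SUS2, a PRP8 protein, usage was 95.8%, 72.7% and 97.7% in xct-1 and 97.1%, 97.7% and 97.7% with SpXAP5.

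The SR proteins, a family of splicing factors rich in arginine and serine, gave no call. Of 16 tested genes 4 had an unadjusted p under 0.05, all with lower values in the transgenic line, beside 8.5% of all genes, of which 796 of 906 were lower. The median log2 change of the list was -1.17. They were SC35, SCL30A, RS40 and RS2Z33, with log2 changes of -1.32, -1.74, -1.40 and -1.95 (edgeR, adjusted p = 0.577 each). RS2Z33 stood at 11.7, 21.7 and 11.4 CPM in xct-1 and 5.18, 1.45 and 5.01 with SpXAP5, so its ranges did not overlap. SCL30A stood at 11.7, 29.2 and 4.89 against 7.77, 4.34 and 1.67, with xct-1 replicate 2 as the highest value. Without that library the log2 changes of SC35, SCL30A, RS40 and RS2Z33 were -0.59, -0.82, -0.75 and -1.54. The summed level of the 19 genes of the list was 323 to 739 CPM in xct-1, 241 to 353 with SpXAP5 and 341 to 759 in Col-0.

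The 4 nonsense-mediated decay genes, whose products degrade messengers with early stop codons, gave no call and a median log2 change of 0.60. LBA1, the helicase UPF1, stood at 513, 128 and 828 CPM in xct-1 and 541, 876 and 963 with SpXAP5, again lowest in xct-1 replicate 2. LBA1 also carried unannotated junctions used more in xct-2, and at 1 of them, 32 bases downstream, usage was 3.30%, 4.68% and 2.76% in xct-1 and 4.07%, 4.46% and 4.51% with the transgene. At another, 27 bases downstream, it was 2.54%, 2.34% and 3.74% in xct-1 and 5.26%, 4.95% and 3.47% with the transgene, and both had overlapping ranges.

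Among the 4 green tissue markers CAB2 and LHCB2.1, light-harvesting proteins of the chloroplast, were lower at an unadjusted p under 0.05. CAB2 stood at 582, 2130 and 490 CPM in xct-1 and 414, 283 and 209 with SpXAP5. LHCB2.1 stood at 62.5, 332 and 57.0 against 41.4, 41.9 and 20.0. The xct-1 replicate 2 values were the highest, and without that library the log2 changes were -0.83 and -0.78 in place of -1.82 and -2.13. The summed level of the list was 3230 to 9205 CPM in xct-1 and 2298 to 3347 with SpXAP5. CAB2 and LHCB2.1 have near-identical copies in the genome, so their counts are uncertain. In such whole-seedling samples fewer green cells and less RNA per cell cannot be told apart. Of the 6 defence and starvation markers, ASN1, a sugar-repressed asparagine synthetase, stood at 88.6, 17.2 and 96.1 in xct-1 and 37.5, 23.1 and 28.4 with SpXAP5 (log2 change -1.15, or -1.63 without xct-1 replicate 2, edgeR adjusted p = 0.577). The defence markers PR1 and BGL2 had no read in any of the 6 libraries.

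The 8 genes with the smallest p were nearly all scarce. AT3G63380, a calcium pump gene, had 2, 0 and 1 reads in xct-1 and 6, 15 and 10 with SpXAP5, and AT4G24380 had 3, 5 and 2 against 12, 9 and 23. AT4G38780, a relative of the core spliceosome protein PRP8, had 4, 6 and 5 reads against 15, 16 and 18. Its close copy SUS2 is far more abundant, so reads of AT4G38780 may be misassigned and its value is uncertain. The other 5 were lower with SpXAP5. They were FED A, a ferredoxin with a log2 change of -2.16, or -1.37 without xct-1 replicate 2, MYB16, a regulator of the leaf cuticle, GGT1, a glutathione-degrading enzyme, and AT5G54630 and AT5G61530. GGT1 had 21, 43 and 22 reads in xct-1 and 6, 10 and 9 with the transgene, a log2 change of -1.36 with a standard error of 0.37. The ranges in CPM did not overlap for any of the 8, which were picked for their small p, and all had an adjusted p of 0.577 in edgeR.

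The excess of lower genes moved with xct-1 replicate 2. Genes lower at an unadjusted p under 0.05 had a median summed exon length of 1294 bases, those higher 2428.5 bases, and all tested genes 1933 bases. Without xct-1 replicate 2, 142 of 11012 genes had an unadjusted p under 0.05, 53 higher and 89 lower, in place of 906. The median lengths were then 1378 bases for lower, 1935 for higher and 1919 for all genes, so the higher genes no longer stood out by length. Without xct-1 replicate 3, 1692 of 11504 did. The exon bins behaved alike, with 1331 higher and 139 lower bins at an unadjusted p under 0.05 in all libraries and 441 higher and 272 lower without xct-1 replicate 2, while the median log2 change of all bins went from 0.46 to 0.11. The junctions went from 1449 higher and 839 lower to 741 and 737.

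The share of all junction reads that fell on unannotated junctions was 1.18%, 0.789% and 1.27% in xct-1 and 1.17%, 1.24% and 1.25% with SpXAP5. The difference of 0.141 percentage points was within the spread of the xct-1 replicates (exact two-sided permutation test, p = 0.7, where 3 against 3 libraries cannot go below 0.1). Without xct-1 replicate 2 the difference was -0.00486 percentage points.

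The authors' deposited table of this comparison named 1 gene. Of 90114 features with an adjusted p there, 3 (0.00333%) were under 0.05, all exon bins of AT5G41740, a disease resistance gene of the TIR-NBS-LRR class, and the authors' deposited table gave adjusted p of 0.00598, 0.00971 and 0.0206 for them. The bins lie at chr5:16692561-16692661, chr5:16692337-16692381 and chr5:16692470-16692491 on the + strand, inside the intron of the annotated junction at chr5:16692316-16692757. The first bin was read in 21.3%, 30.2% and 18.4% of AT5G41740 reads in xct-1 and 42.9%, 44.3% and 47.7% with SpXAP5. The junction over the intron was used in 74.5%, 58.1% and 79.5% against 53.1%, 53.5% and 51.3%. Neither set of ranges overlapped, so reads with the first bin made up a larger share in the transgenic line and reads with the junction a smaller one. The bins do not adjoin each other, and whether reads kept the whole intron was not tested.

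In edgeR the bin had a log2 odds change of 1.5 with a standard error of 0.52 (unadjusted p = 0.00925, adjusted p = 0.903), and the junction one of -1.28 with a standard error of 0.44 (adjusted p = 0.984). With the gene count as an offset in place of the other reads of the gene, this junction was the single junction called in the whole table, with an adjusted p of 0.0190. The reads of the gene varied widely, with 47, 43 and 478 in xct-1, 98, 230 and 195 with SpXAP5 and 19, 12 and 246 in Col-0. Usage also varied among the other genotypes, since the bin stood at 35.4% ± 5.60 in xct-2 and 52.0% ± 2.11 in xct-2 XCT::XCT (SD, n = 3 each). AT5G41740 has a close copy, AT5G41750, with which reads may be shared, so its values are uncertain.

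**Figure D5:**
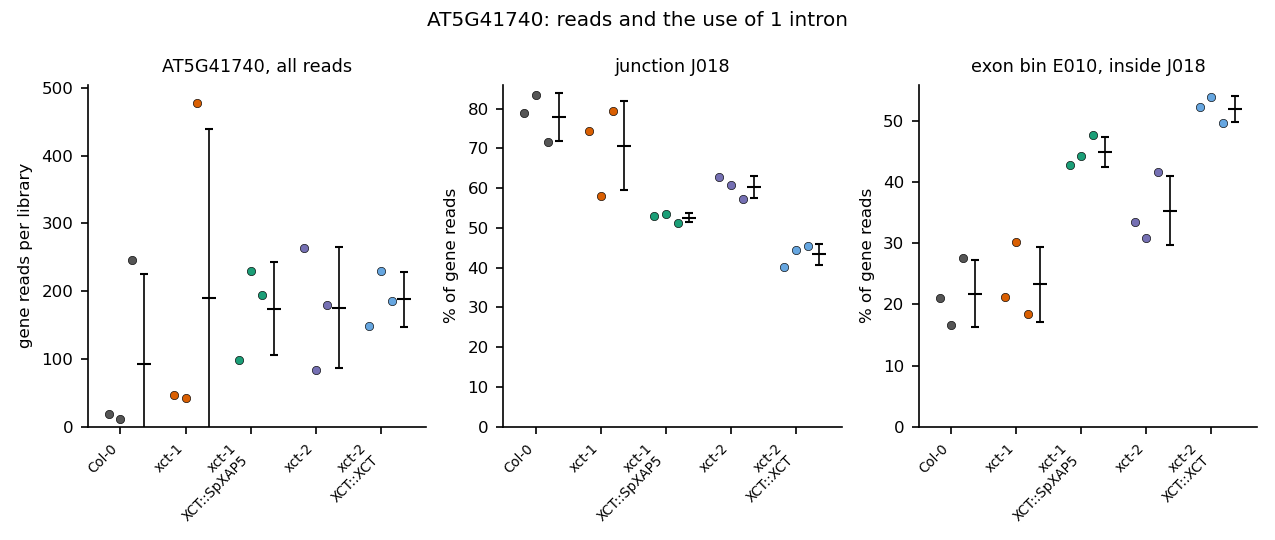
AT5G41740 in 5 genotypes, as gene reads per library (left), usage of the junction named J018 (middle, % of gene reads) and usage of the exon bin named E010 inside that intron (right, % of gene reads). Points are replicates 1 to 3 from left to right and bars are mean ± SD (n = 3). The xct-1 XCT::SpXAP5 points lie below xct-1 in the middle panel and above it on the right, while the gene reads overlap.

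The junctions with the smallest p outside that gene were small shifts at well-read genes or large ones at scarce genes. At AT3G14205 an annotated junction at chr3:4718604-4718707 on the - strand was used in 150 of 158, 105 of 110 and 206 of 214 reads in xct-1 and 172 of 173, 225 of 226 and 215 of 216 with SpXAP5. Col-0 stood at 99.3% ± 0.928 and xct-2 at 99.1% ± 0.577, so xct-1 with 95.6% ± 0.668 was the lowest of these and the transgenic line stood at 99.5% ± 0.0731 (SD, n = 3 each). The log2 odds change was 3.08 with an interval from 1.73 to 4.43 (edgeR, adjusted p = 0.984). This junction was picked for its small p. AGY1, a SecA-type translocase of the chloroplast, SHV3, a cell wall protein of root hairs, AT5G27970 and AT5G46420 likewise had means of 97.4% to 98.6% in xct-1 and of 99.7% or more with SpXAP5, without a call at the minimum of 20 reads. With a minimum of 1 read edgeR called the AGY1 and AT5G27970 junctions, with adjusted p of 0.0108 and 0.0374.

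At GLX2-5, a glyoxalase, the named junction was used in 5 of 5, 47 of 50 and 4 of 4 reads in xct-1 and in 4 of 12, 1 of 4 and 1 of 4 with SpXAP5. At MEE18 it was used in 7 of 7, 24 of 24 and 6 of 6 reads against 7 of 11, 2 of 5 and 2 of 4. ERD6, a sugar transporter-like gene induced by dehydration, was in between with 28 of 32, 68 of 69 and 129 of 132 against 28 of 33, 33 of 46 and 26 of 43. These 3 junctions were lower in every transgenic library than in every xct-1 library, but few reads lay behind GLX2-5 and MEE18. With a minimum of 1 read edgeR called the GLX2-5 and ERD6 junctions, with adjusted p of 0.00398 and 0.00214, and not at the minimum of 20 reads. Of the exon bins with the smallest p, AT5G47430 was read in 94.9%, 91.8% and 95.9% in xct-1 and 99.4%, 99.5% and 100% with SpXAP5, and AAP2, an amino acid permease, in 98.3% ± 0.173 against 100% in all 3 libraries. The remaining 2, in AT5G01950 and AGY1, were also higher with SpXAP5, with an adjusted p of 0.903 for all 4 in edgeR.

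Beyond AT5G41740, the authors' deposited table gave its next adjusted p values of 0.0821 for the same AT5G47430 bin and of 0.24 for a junction of TTN8, a cohesin subunit. In the same authors' deposited table, AT4G23670, KUP7, AT3G14205, LARP6b and AT1G56500 followed with 0.24 to 0.287. At AT4G23670 the bin was read in 55.4%, 56.0% and 55.1% in xct-1 and 83.3%, 76.9% and 87.0% with SpXAP5, with a log2 odds change of 1.88 and an adjusted p of 0.903 in edgeR. In Col-0 the same bin ranged widely, at 78.8% ± 15.8 (SD, n = 3). KUP7, a potassium transporter, used its junction in 93.0%, 96.1% and 94.7% against 100%, 98.3% and 100%. The junction of TTN8 was used in 97.7%, 93.9% and 97.7% of reads in xct-1 and 99.6%, 100% and 99.8% with the transgene. None of these was called in edgeR at the minimum of 20 reads, where the adjusted p of the TTN8 junction was 0.984. With a minimum of 1 read the TTN8 junction was called (edgeR, adjusted p = 0.00398) together with 11 others of TTN8, all higher with SpXAP5. The ranges of the lines did not overlap at any of the 12, but xct-1 replicate 2 was the lowest library at all 12. Their usage was 63.9% to 94.6% in xct-1 replicate 2 and 88.7% to 100% in the other 5 libraries. Without that library the median log2 odds change of the 12 was 3.27 in place of 4.07.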

How the data were processed

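RNA of 18 Arabidopsis libraries was read with PacBio Iso-Seq, and reads were aligned with minimap2 2.17 to TAIR10, per the submitters' processing notes. The authors deposited, per the file headers, raw counts per library for each of 334524 features, namely genes, exon bins, annotated junctions and unannotated junctions. They also deposited a table of their own test of this comparison, with p-values, adjusted p-values and log2 fold changes, whose sign was turned to xct-1 XCT::SpXAP5 over xct-1. How reads were assigned to strands and features is not given in the sources used here.

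Usage was tested with edgeR 4.0.16 (R 4.3.3) by the quasi-likelihood test, with Benjamini-Hochberg adjustment over all features of a kind. Each model set the reads on a junction or exon bin against the other reads of its gene, giving every library its own level and every genotype its own usage. All 18 libraries entered, with at least 20 reads on each side in all. Gene counts were tested likewise with TMM scaling, and CPM values used the same scaling. Standard errors were the log2 change divided by the square root of F. Usage in percent was junction reads over gene reads, or over junction reads where these were more numerous, as in 5.74% of nonzero junction values. Loci of several genes were left out of the tests. DESeq2 1.42.0, other filters, a gene-count offset, diffSpliceDGE from edgeR, fits on fewer libraries, a replicate block and leaving out each library were the alternatives. The models were checked on simulated data. Exact permutation tests used scipy 1.17.1 and figures matplotlib 3.10.9.

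Groups came from the sample titles. Gene reads ranged from 459150 to 1046273 per library, and zero counts and intervals cover counting error only. The p-values measure the spread between 3 independent replicates per genotype. Replicates differed by more than sampling noise in all 6 pairs within xct-1 and within the SpXAP5 line, the groups checked. The members and gene lists were chosen with earlier results of these data known. Named were the 12 junctions described in the text; the 8 junctions, 8 genes and 4 exon bins with the smallest p, 1 per gene; up to 8 features with the smallest adjusted p in the authors' table; list members with an unadjusted p under 0.05; 9 clock genes whatever their p; and XCT and PRL1. The intron junction of AT5G41740, the junctions in listed genes that were called in xct-2 and PRP2 were added after their values were seen. Gene names came from RefSeq for 31527 of 32209 gene IDs. No sequence is shown, since no genome was used here.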

Additional observations from a re-analysis of the deposited data

Results flagged for a closer look

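The change with SpXAP5 in xct-1 differed from the change with XCT in xct-2 at 712 junctions (edgeR interaction term, adjusted p under 0.05). Allele and transgene both differ between these pairs and cannot be told apart. The values that follow are the SpXAP5 change in xct-1 minus the XCT change in xct-2, in percentage points of usage. Among the 12 junctions named for their use in xct-2, the difference was 70.208 at ABCB26, 54.983 at AT3G24180, 47.552 at AT4G38350, 41.237 at AT4G11270, 38.867 at ATH13 and 38.004 at ATX2. It was 35.136 at NTRC, 16.876 at EMB2753, 16.747 at TIC, 11.207 at CEV1, 2.324 at GLU1 and 0.983 at NIA2. Among the clock genes it was 63.034 at UBP13, 40.383 at AT3G54500, 38.337 at LHY and 15.884 at TOC1. At these 16 junctions xct-2 stood high by the choice of junction.

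Another pair of annotated junctions differed as well. Both were named because their p for the SpXAP5 change was among the smallest. That change is part of the difference given here, so the choice of junction favoured a large value. The values of this pair are therefore a description and no independent result. At AT3G14205 the difference was 4.767 percentage points, where usage was higher with SpXAP5 than in xct-1 and lower with XCT than in xct-2. At MEE18 it was -68.211 percentage points, on few reads.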

How the results depend on the processing

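No junction, exon bin or gene was called between the lines when each of the 6 libraries was left out in turn (0 in each case), nor with DESeq2, with the 6 libraries alone or with minimums of 10 and 50 reads. With a minimum of 1 read, 151 of 100911 junctions and 1 of 98331 exon bins were called. With the gene count as offset 1 junction was called. Without a filter 6 genes were called, all lower, PRP2 among them. In 136 of the 151 junctions xct-1 replicate 2 was the lowest of the 6 libraries.

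The replicate numbers showed no pairing of the xct-1 and xct-1 XCT::SpXAP5 libraries. Correlations of same-numbered libraries were -0.293, -0.168 and 0.289, and those of other-numbered libraries ran from -0.433 to 0.481. With 3 libraries a line, these values cannot decide whether same-numbered libraries were handled together. Pairing among the other genotypes was not checked, and replicate 2 of Col-0, xct-1, xct-2 and prl1-2 shared a low number of junctions per read. With a replicate block 0 junctions, 0 exon bins and 0 genes were called, and 709 junctions in the comparison of the 2 transgene changes. With the block and the junctions per read as a covariate 3 genes were called, and genes at an unadjusted p under 0.05 split into 448 higher and 323 lower. The 712 junctions of the transgene comparison became 1072 in that fit and ranged from 599 to 703 with a library left out.

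The difference in unannotated share ranged from -0.00486 to 0.234 percentage points with a library left out, the lowest without xct-1 replicate 2. Pooled usage differed by -0.166 to 0.0677 points with a library left out, and the mean of junction usages by 0.508 points.

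Some log2 changes turned sign. With diffSpliceDGE, which sets a junction against the other junctions of its gene, the AGY1, TTN8 and AT1G56500 junctions stood at -0.0010, -0.053 and -0.038. The main fit gave 2.15, 3.92 and 3.34, but as log2 odds against the other reads of the gene. The 2 measures differ, so their sizes cannot be compared, and the cause of the change of sign was not tested. The other log2 changes that turned sign were levels of clock genes and PRL1. With the 6 libraries alone CCA1, LHY and PRR7 stood at -0.14, -0.18 and -0.066. With block and covariate CCA1, LHY, PRR7 and UBP13 stood at -0.033, -0.22, -0.38 and -0.045, and PRL1 at 0.058. GI stood at 0.0051 with DESeq2 size factors, 0.0031 with DESeq2 and 0.20 with the replicate block. With a library left out LHY ranged from -0.054 to 0.16, GI from -0.52 to 0.32, PRR7 from -0.46 to 0.49 and PRR9 from -0.75 to 0.43.

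Depth limits the scarce genes most. The transgene was not measured, 1 line stands for it, and 3 libraries a group give wide intervals.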

Other observations

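PRP2, a gene for a proline-rich cell wall protein that the files list next to XCT, was chosen after its values were seen. It had 7, 47 and 3 reads in xct-1 and 1, 0 and 0 with SpXAP5, beside 8, 19 and 5 in Col-0 and 2, 20 and 0 in xct-2. The log2 change was -4.80 with a standard error of 1.34 (edgeR, adjusted p = 0.577). Without a filter on low counts the adjusted p was 0.0407.

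Among 74 junctions tested in SR splicing factors, 6 had an unadjusted p under 0.05 and 0 were called, beside 4.52% of all junctions at that p. Usage was lower with SpXAP5 at 5 of them, in SR30, RS31, SCL33 and, at a pair of junctions, RS2Z33. It was higher at SR34a, with 83.1% ± 1.70 in xct-1 and 97.8% ± 3.85 with SpXAP5 (SD, n = 3 each). Few reads lay behind several of these. With SpXAP5 there were 4, 1 and 3 gene reads at RS2Z33, 13, 9 and 6 at SCL33 and 15, 10 and 6 at SR34a. The SR30 junction was used in 33 of 33, 132 of 134 and 29 of 29 reads in xct-1 and 42 of 43, 30 of 32 and 27 of 30 with the transgene. At AT2G39260, a UPF2-type decay factor, 5 junctions had an unadjusted p under 0.05, and xct-1 replicate 2 stood at 62.1% to 64.4% there while the other 5 libraries stood at 89.7% or above. At all 5 junctions replicate 2 was also the lowest of its genotype in Col-0, xct-2 and prl1-2. Its values there were 74.0% to 77.9%, 77.7% to 81.25% and 76.0% to 77.3%.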
